A study of Mus musculus with 4 samples.

Results

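The genes described here encode the CD3 chains of the T cell receptor complex and the first enzymes and adaptors that act on them. They are the 9 genes Cd3d, Cd3e, Cd3g, Cd247, Lck, Fyn, Zap70, Lat and Lcp2, chosen by symbol from the 24452 genes of the deposited table, which lists them in capitals as CD3D, CD3E, CD3G, CD247, LCK, FYN, ZAP70, LAT and LCP2. All 9 were found. RNA was sequenced from regulatory T cells (Tregs), CD4 T cells that dampen immune responses, isolated from livers of young mice. Of 4 libraries, 2 came from Altre-KO mice, which lack Altre, a non-coding RNA of these cells, and 2 from Altre-WT mice, which carry it. The labels give no treatment, strain, sex, age in weeks or way of making the knockout, nor do they state that the libraries of 1 genotype are from different mice. P-values therefore measure only spread between these libraries, taken mostly from its trend across all tested genes, and that spread may be technical. Altre itself was not analysed here, and the genotypes are those of the labels. The comparison asks whether these transcripts differ between Tregs with and without Altre.

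The antigen-binding chains of the T cell receptor have almost no cytoplasmic part and signal through CD3 gamma, delta and epsilon and the zeta chain, whose tails carry paired tyrosines. Lck, held at the coreceptor CD4, and Fyn phosphorylate those tyrosines, Zap70 docks on them and phosphorylates the adaptors Lat and Slp-76 (the product of Lcp2), and these gather the enzymes that release calcium and activate Ras. Tregs need this pathway for their suppressive function. Levels are in CPM, reads scaled so that the listed genes of a library sum to a common total. In bulk RNA, fewer cells of a type and less RNA per cell cannot be told apart.

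The libraries held 3266132 and 2361929 estimated reads on listed genes in Altre-KO and 1828772 and 2378954 in Altre-WT. Altre-KO replicate 1 stood apart in the share of its reads on listed genes, 32.8%, against 21.5% in Altre-KO replicate 2 and 18.8% and 20.6% in Altre-WT. The label Tregs was checked against 6 markers (Foxp3, Il2ra, Ctla4, Ikzf2, Tnfrsf18 and Cd4), all above 0 in every library, with a summed level of 2686 and 2758 CPM in Altre-KO and 2731 and 2747 CPM in Altre-WT. Ikzf2 alone gave 1226 and 1272 CPM of that sum in Altre-KO and 1236 and 1253 CPM in Altre-WT. Foxp3 itself was at 79.5 CPM in Altre-KO replicate 1 and 162 CPM in replicate 2, against 160.4 and 140.4 CPM in Altre-WT. Il2ra was also lowest in Altre-KO replicate 1 (164.1 CPM, against 212.5 in replicate 2 and 209.4 and 190 in Altre-WT), while Tnfrsf18 was highest there (292.4 CPM, against 235 in replicate 2 and 215.4 and 225.7 in Altre-WT). The CD8 chain gene Cd8a lay at or below 0.42 CPM, and the hepatocyte genes Alb and Ttr and the platelet gene Pf4 were at 0 in all 4 libraries. Other markers of those cells were detected: Cd8b1 at 4.66 to 8.83 CPM, Apob at 1.22 to 4.23 CPM and Itga2b at up to 4.9 CPM. Myeloid transcripts were present in every library, with 6 markers summing to 271.6 and 152 CPM in Altre-KO and 175.5 and 277.4 CPM in Altre-WT.

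The 3 CD3 chain genes are neighbours. In GRCm38 with the GENCODE M21 annotation, Cd3g (chr9:44969572-44980431, minus strand) and Cd3d (chr9:44981786-44987339, plus strand) point away from each other with starts 1355 bases apart, and Cd3e (chr9:44998740-45009627, minus strand) lies 11401 bases beyond Cd3d. All 3 fall within 40056 bases. The 250 bases before the RefSeq start of each gene are shown because these neighbours had unequal transcript levels, given below. For Cd3e that start lies inside the GENCODE bounds, so its window overlaps them. The sequences are from RefSeq on GRCm38.p6, written 5′ to 3′ on the strand of the gene. Capitals mark GGAAG or its complement CTTCC, which holds the GGAA core bound by ETS factors.
Cd3g, chr9:44980432-44980681, minus strand: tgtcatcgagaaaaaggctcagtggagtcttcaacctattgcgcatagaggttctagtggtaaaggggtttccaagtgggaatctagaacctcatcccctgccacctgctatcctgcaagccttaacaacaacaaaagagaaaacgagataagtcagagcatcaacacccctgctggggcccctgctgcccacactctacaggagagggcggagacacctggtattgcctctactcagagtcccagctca
Cd3d, chr9:44981536-44981785, plus strand: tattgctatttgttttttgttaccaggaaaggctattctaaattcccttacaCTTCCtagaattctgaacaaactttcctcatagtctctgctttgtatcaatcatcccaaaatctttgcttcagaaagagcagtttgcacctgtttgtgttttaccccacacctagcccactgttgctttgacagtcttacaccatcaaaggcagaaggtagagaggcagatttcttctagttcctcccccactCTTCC
Cd3e, chr9:45009612-45009861, minus strand: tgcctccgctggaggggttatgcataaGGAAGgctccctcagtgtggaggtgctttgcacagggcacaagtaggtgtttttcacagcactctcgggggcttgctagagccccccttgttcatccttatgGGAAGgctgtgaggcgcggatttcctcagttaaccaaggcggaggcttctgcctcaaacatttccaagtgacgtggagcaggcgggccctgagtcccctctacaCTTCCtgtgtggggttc
GGAAG, on either strand, occurs 3 times before Cd3e, 2 times before Cd3d and 0 times before Cd3g. GGAA followed by another base is present in all 3 windows and was not counted. The E-box CANNTG, read the same on both strands, occurs 3 times before Cd3g and 1 time before each of the others. The TATA sequence TATAAA was in none of the 12 such windows of the 9 genes, searched on both strands, and in 12.4% of all 32851 RefSeq windows of that length. GGAAG was in 9 of the 12 windows and in 64.1% of all windows, and CANNTG in 10 of the 12 and in 66.2%. The matches describe the letters only.

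None of the 9 genes passed the test between genotypes. With limma on log2(CPM + 1), 0 of the 9 passed an adjusted p of 0.05, where 0.0381% of the 10486 tested genes did (4 genes, all lower in Altre-KO). At an unadjusted p under 0.05 there were also 0 of the 9, against 3.66% of tested genes, and limma-voom on estimated reads and the authors' deposited table called 0 of the 9 as well. For all 9 the values of the 2 genotypes overlapped, where 30.8% of tested genes had values that did not. Of the 9, 3 had log2 fold changes above 0 (47.9% of tested genes) and 6 below 0 (52.1%), with a median of -0.06 beside -0.01 for all tested genes. All 9 passed the filter on low values.

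**Figure D1:**
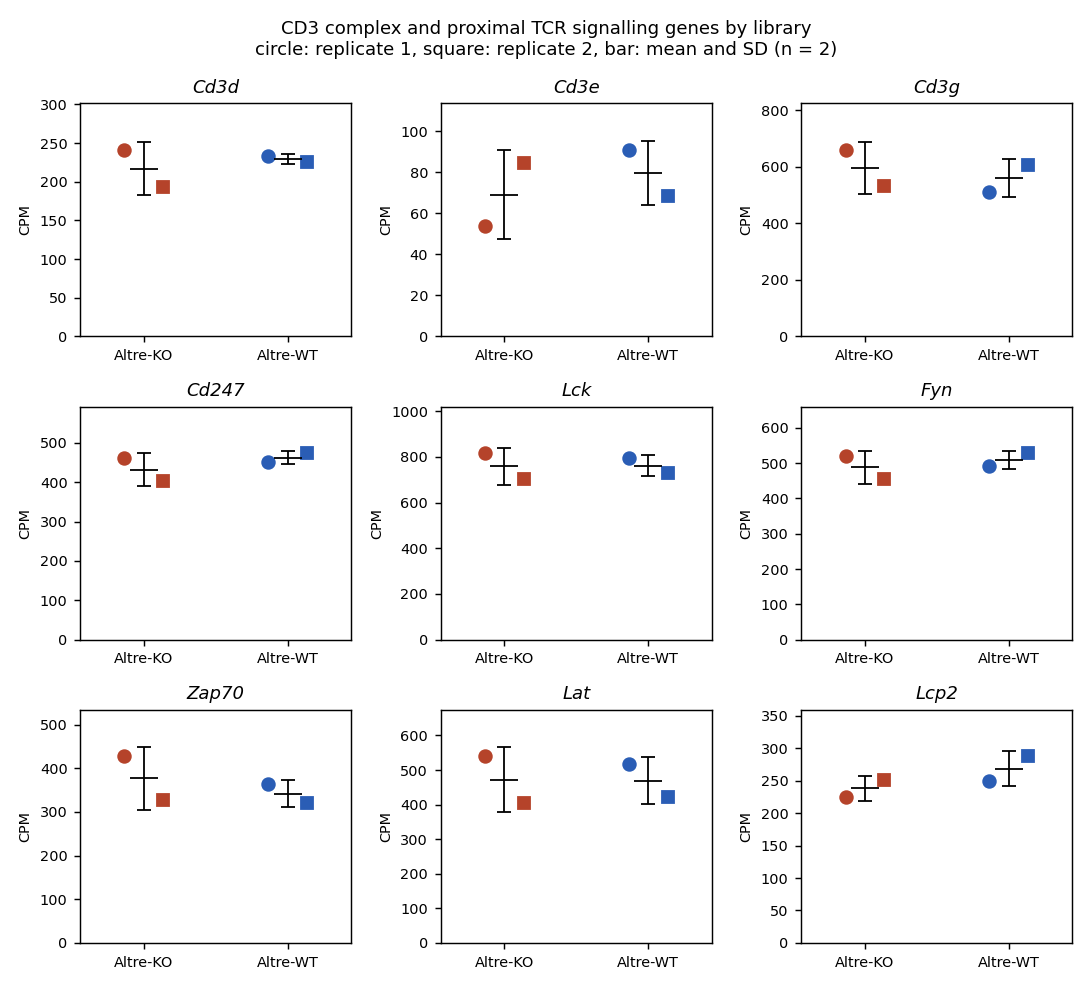
CPM of each gene (vertical axes, from 0) in the 2 Altre-KO and 2 Altre-WT libraries, with circles for replicate 1, squares for replicate 2, and bars for the mean and SD. In all 9 panels the values of the genotypes overlap.

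Among the CD3 chains, Cd3g (CD3 gamma) was at 659 and 530.9 CPM in Altre-KO replicates 1 and 2 and 512 and 607 CPM in Altre-WT replicates 1 and 2. A library of Altre-KO was thus highest and one of Altre-WT lowest, with the others between them. The log2 fold change was 0.09 (SE 0.15, limma adjusted p = 0.999, 95% interval -0.23 to 0.40). Cd3d (CD3 delta) was at 241 and 193 CPM in Altre-KO and at 233 and 225 CPM in Altre-WT. Both Altre-WT values lay between the 2 Altre-KO values, and the log2 fold change was -0.09 (95% interval -0.42 to 0.25).

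Cd3e (CD3 epsilon, which pairs with both gamma and delta) was at 53.9 and 84.25 CPM in Altre-KO and at 90.8 and 68.5 CPM in Altre-WT. It varied most of the 9, with its highest library at 1.68 times its lowest, where the others lay between 1.16 and 1.33 times. Its estimated reads were 176 and 199 in Altre-KO and 166 and 163 in Altre-WT, so counting error alone is 7.09% to 7.83% of each value, while the SD between libraries was 31.1% of the mean in Altre-KO and 19.8% in Altre-WT. The log2 fold change was -0.22 (SE 0.23, limma adjusted p = 0.999), with the widest 95% interval of the 9, -0.70 to 0.25. Its lowest value was in Altre-KO replicate 1, the library with the larger share of reads on listed genes and the lowest Foxp3, and the part of that library's make-up in the value was not tested. Without that library the log2 fold change was 0.09.

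Cd247 (chr1:165788681-165877277, plus strand) encodes the zeta chain, which carries the most tyrosine pairs of the complex. It was at 461 and 402 CPM in Altre-KO and at 452 and 473 CPM in Altre-WT, with Altre-KO replicate 2 the lowest library and a log2 fold change of -0.10 (95% interval -0.41 to 0.20). The level of Cd247 is uncertain, because its transcripts overlap those of Pou2f1, the gene of the transcription factor Oct-1 on the opposite strand, over 2140 bases. The labels do not state whether counting used strand, and the estimated reads of Cd247 were fractional in 3 of the 4 libraries (1505.2 and 949.2 in Altre-KO, 825.98 and 1126.2 in Altre-WT). Those of the other 8 genes were whole in every library, within 0.05 of a read. Pou2f1 was at 133 and 206 CPM in Altre-KO and at 175 and 178 CPM in Altre-WT (log2 fold change -0.09). Shorter overlaps with genes on the opposite strand exist for Cd3e (136 bases, the antisense gene Gm48719) and Lcp2 (196 bases, 4930469K13Rik), and their part in the levels was not tested.

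The Src-family kinase gene Lck (chr4:129548344-129573641, minus strand) was at 816 and 702 CPM in Altre-KO and 796 and 728 CPM in Altre-WT. Both Altre-WT values lay between the 2 Altre-KO values. Its log2 fold change of -0.01 had a 95% interval of -0.31 to 0.29 (limma adjusted p = 0.999). Fyn (chr10:39368855-39565381, plus strand), its relative in the same family, was at 521 and 455 CPM in Altre-KO and at 491 and 528 CPM in Altre-WT, with a log2 fold change of -0.06 (95% interval -0.37 to 0.24). The lowest value was again in Altre-KO replicate 2.

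Zap70 (chr1:36761798-36782818, plus strand), the kinase that binds phosphorylated CD3 and zeta tails, was at 427 and 326 CPM in Altre-KO and at 364 and 320.3 CPM in Altre-WT. It had the highest log2 fold change of the 9, 0.13 (SE 0.16, limma adjusted p = 0.999, 95% interval -0.20 to 0.46). The value of Altre-KO replicate 1 alone lay above both Altre-WT libraries, while that of replicate 2 lay between them. Without Altre-KO replicate 1 the log2 fold change was -0.06.

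Lat (chr7:126363824-126369570, minus strand), the membrane scaffold phosphorylated by Zap70, was at 539 and 406 CPM in Altre-KO and at 517 and 422 CPM in Altre-WT. The spread within each genotype was far larger than the difference between them, since the log2 fold change was 0.003 (95% interval -0.33 to 0.34) and the libraries differed by 0.41 within Altre-KO and 0.29 within Altre-WT. Lcp2 (chr11:34046920-34092295, plus strand), whose product Slp-76 is recruited to Lat, was at 225 and 252 CPM in Altre-KO and at 249.9 and 288 CPM in Altre-WT. It had the smallest p of the 9 (log2 fold change -0.17, SE 0.16, 95% interval -0.49 to 0.15, limma adjusted p = 0.999), and its higher Altre-KO value lay just above its lower Altre-WT value. Myeloid cells and mast cells also use Slp-76. The summed level of 6 myeloid markers was 272 and 152 CPM in Altre-KO and 175 and 277 CPM in Altre-WT, with all 6 above 0 in every library, and that of 4 mast cell markers was 12.6 and 11.9 CPM in Altre-KO and 6.01 and 16.8 CPM in Altre-WT. Their part in the Lcp2 values was not tested.

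**Figure D2:**
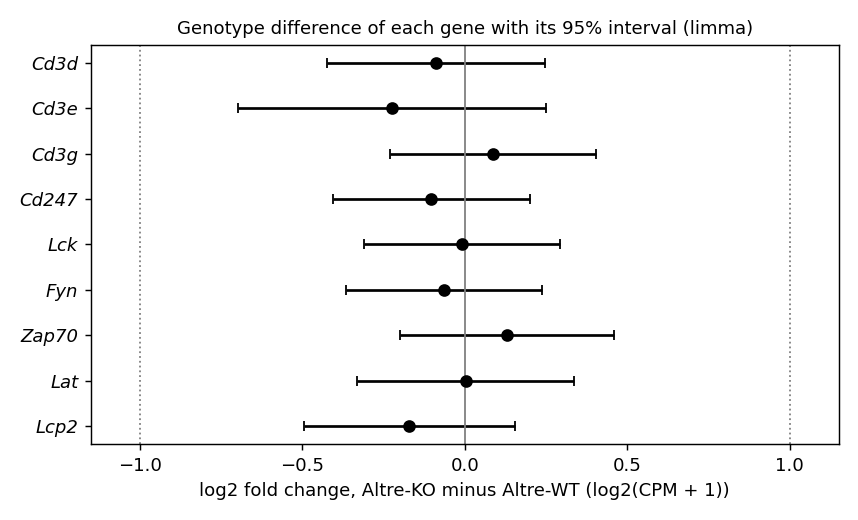
Log2 fold change of each gene, Altre-KO minus Altre-WT on the log2(CPM + 1) scale (horizontal axis), with its 95% interval from limma (n = 2 libraries per genotype); the dotted lines mark a log2 change of 1 in either direction. Every interval spans 0 and lies inside the dotted lines.

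The intervals bound how large a difference these libraries allow under the main scaling and model. Over the 9 genes the lowest bound was a 0.616-fold level in Altre-KO (Cd3e) and the highest a 1.37-fold level (Zap70). With the deposited reads-per-million (RPM) scaling, errors were larger and wider bounds apply. Zap70 was then at a log2 fold change of 0.56 (SE 0.41), where the median of all tested genes was 0.41. The limma intervals rest only in part on the 2 libraries of each genotype, and mostly on the trend of variance with level across genes (20.8 prior degrees of freedom).

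For most of the 9 transcripts the 2 Altre-KO libraries differed from each other by more than the genotypes did. The gap between the 2 Altre-KO libraries was larger than the genotype difference in 8 of the 9 genes, all but Lcp2, beside 64.5% of tested genes. It was larger than the gap between the 2 Altre-WT libraries in 8 of the 9, again all but Lcp2, beside 53.6% of tested genes. In 7 of the 9, Altre-KO replicate 1 was above Altre-KO replicate 2, beside 56% of tested genes, and the exceptions were Cd3e and Lcp2. Summed over the 9 genes, the level was 3943 and 3351 CPM in Altre-KO, the highest and the lowest of the 4 libraries, and 3705 and 3659 CPM in Altre-WT. The parts of this sum had the same order of the Altre-KO libraries, though Cd3e and Lcp2 within them did not. They were 1415 and 1210 CPM in Altre-KO and 1288 and 1374 CPM in Altre-WT for the 4 CD3 and zeta genes. For the 3 kinases they were 1764 and 1484 CPM in Altre-KO and 1650.3 and 1576 CPM in Altre-WT. For the 2 adaptors they were 764 and 658 CPM in Altre-KO and 767 and 709 CPM in Altre-WT.

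**Figure D3:**
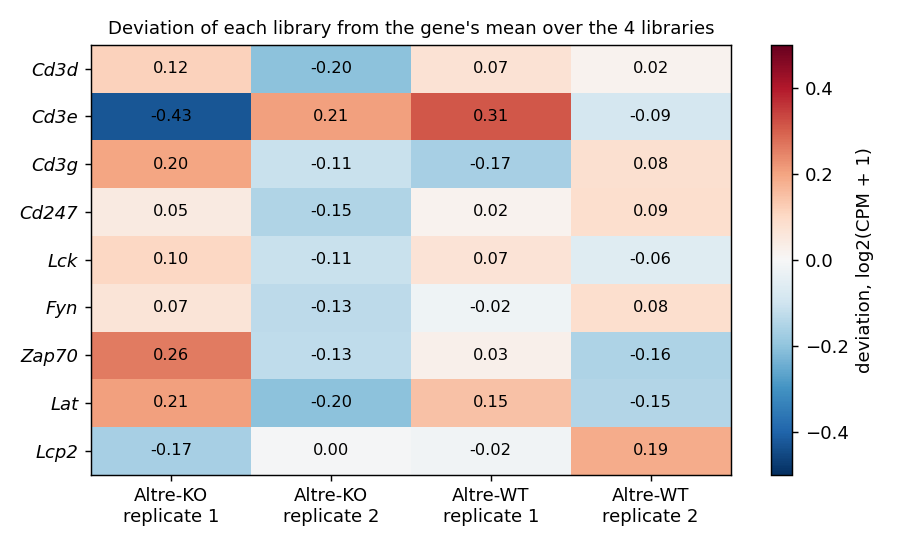
Deviation of each library (columns) from the gene's mean over the 4 libraries (rows, the 9 genes), in log2(CPM + 1), red for above and blue for below. Altre-KO replicate 1 is above its gene's mean for 7 genes and below it for Cd3e (-0.43) and Lcp2 (-0.17).

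Per length, the top and the bottom of the order were the same in every library, while several genes between them overlapped. Lck was highest, at 278 and 239.7 CPM per kilobase of merged exons in Altre-KO and 272 and 249 in Altre-WT, and its 4 values did not overlap those of any other member. Cd3g (202 and 162 in Altre-KO, 157 and 186 in Altre-WT) and Lat (195 and 147 in Altre-KO, 187 and 152 in Altre-WT) came next and overlapped each other. Cd3d, Zap70 and Fyn followed, between 104 and 143 CPM per kilobase over the 4 libraries, and these 3 could not be put in order beyond their spread. Cd247 (86.5 and 75.4 in Altre-KO, 84.8 and 88.8 in Altre-WT), Lcp2 (50.5 and 56.5 in Altre-KO, 56.0 and 64.5 in Altre-WT) and Cd3e (13.2 and 20.6 in Altre-KO, 22.2 and 16.8 in Altre-WT) ended the order with no overlap between neighbours. Over the longest transcript in place of merged exons, Lck stayed highest and Lcp2 and Cd3e lowest in all 4 libraries, while Cd247 moved up among Cd3d, Zap70 and Fyn.

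**Figure D4:**
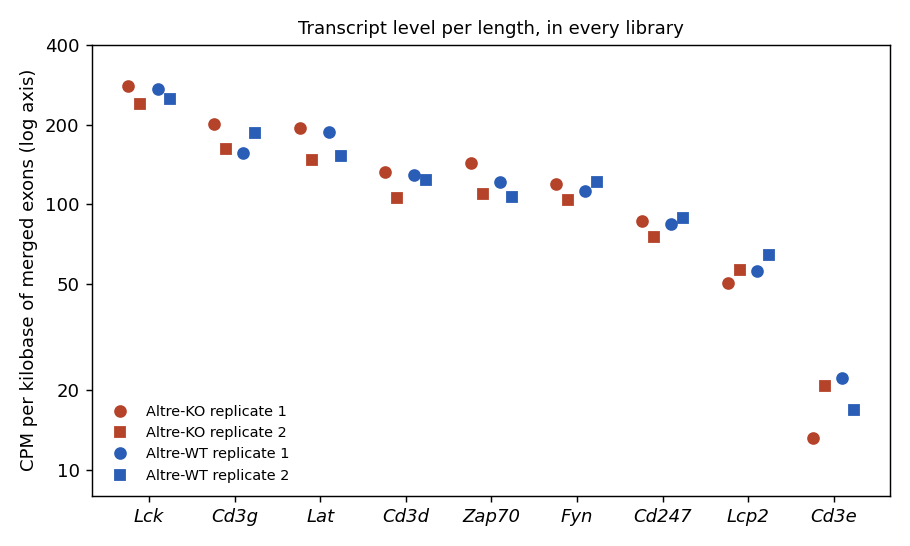
CPM per kilobase of merged exons (vertical log axis) of the 9 genes in each library, genes ordered by their mean over the 4 libraries. Lck lies between 239.7 and 278 and Cd3e between 13.2 and 22.2.

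The low level of Cd3e beside its neighbours held in both genotypes. Its level per kilobase of merged exons was 0.0655 and 0.127 of that of Cd3g in Altre-KO and 0.142 and 0.0905 in Altre-WT. Such ratios within a library do not depend on scaling between libraries, but their size depends on the gene lengths used. The corresponding ratio of Cd3d to Cd3g was 0.658 and 0.654 in Altre-KO and 0.822 and 0.667 in Altre-WT. That of Fyn to Lck was 0.429 and 0.435 in Altre-KO and 0.414 and 0.487 in Altre-WT. That of Cd247 to Cd3g was 0.429 and 0.464 in Altre-KO and 0.541 and 0.478 in Altre-WT. That of Zap70 to Lck was 0.513 and 0.455 in Altre-KO and 0.447 and 0.431 in Altre-WT, and that of Lcp2 to Lat was 0.259 and 0.385 in Altre-KO and 0.300 and 0.423 in Altre-WT. For the ratios of Cd3d and Cd247 to Cd3g and of Zap70 to Lck, the values of the genotypes did not overlap. Values of single genes did not overlap for 30.8% of tested genes. No such share was computed for ratios, and these 6 were picked, so no difference between genotypes is read from them. The ratios of Cd3d and Cd247 share the denominator Cd3g, and the level of Cd247 is uncertain. The nearest values of the genotypes were 0.658 and 0.667 for Cd3d to Cd3g and 0.455 and 0.447 for Zap70 to Lck. The ratios are given as values and were not tested. An exact two-sided permutation test of 2 against 2 libraries cannot go below p = 0.333.

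Around these 9 genes, 88 others of the pathway were listed in 6 groups. The 4 receptor constant-chain genes among them were not analysed here, and 78 of the rest were tested. Of these, 28 had log2 fold changes above 0 and 50 below, beside 47.9% and 52.1% of all tested genes. Limma called 0 at an adjusted p of 0.05, beside 0.0381% of tested genes, and 2 at an unadjusted p under 0.05 (Icos and Sit1), beside 3.66%. The genotypes did not overlap for 15 of the 78, beside 30.8% of tested genes.

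Of the coreceptor and costimulatory genes, 7 were tested, 2 above and 5 below 0, with a median log2 fold change of -0.11. Cd4, whose product brings Lck to the receptor, was at 535 and 547 CPM in Altre-KO and at 543 and 527 CPM in Altre-WT. The smallest p values belonged to Icos, a costimulatory receptor of the CD28 family (120.3 and 124 CPM in Altre-KO, 156 and 166 CPM in Altre-WT, log2 fold change -0.40, limma adjusted p = 0.999), Slamf6 (148 and 109 CPM in Altre-KO, 144 and 151 CPM in Altre-WT) and Cd8b1, at 8.83 CPM or less. The genotypes did not overlap for 3 of the 7 (Icos, Cd8b1 and Cd28, lower in both Altre-KO libraries), beside 30.8% of tested genes.

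Of 20 regulators of Lck and Zap70, 7 were above and 13 below 0, with a median of -0.03. Sit1, an inhibitory transmembrane adaptor, was at 102 and 83.4 CPM in Altre-KO and at 65.1 and 71.5 CPM in Altre-WT (log2 fold change 0.43, 95% interval 0.01 to 0.84, limma adjusted p = 0.999). Unc119, a chaperone that carries lipid-modified Src-family kinases, was at 39.2 and 38.5 CPM in Altre-KO and at 24.1 and 33.2 CPM in Altre-WT. The receptor gene Cd6 was at 503 and 462 CPM in Altre-KO and at 581 and 553 CPM in Altre-WT. Csk, the kinase that holds Lck inactive, was at 386 and 371 CPM in Altre-KO and at 397 and 383 CPM in Altre-WT, a log2 fold change of -0.04.

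Of 19 adaptors and exchange factors that gather at Lat, 8 were above and 11 below 0, with a median of -0.02. The smallest p belonged to Fyb, an adaptor that binds Slp-76 (219 and 365 CPM in Altre-KO, 348 and 320.3 CPM in Altre-WT), to the exchange factor gene Vav3 (75.9 and 50.8 CPM in Altre-KO, 64.5 and 84.1 CPM in Altre-WT) and to the adaptor gene Grap (293 and 253 CPM in Altre-KO, 251.5 and 235 CPM in Altre-WT). Fyb, like Cd3e, had its lowest value in Altre-KO replicate 1.

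Of 23 distal genes, 8 were above and 15 below 0, with a median of -0.04. Among those with the smallest p were the GTPase gene Nras (127 and 111 CPM in Altre-KO, 149.8 and 136 CPM in Altre-WT) and Itpkb, an inositol phosphate kinase (338 and 434 CPM in Altre-KO, 451 and 403 CPM in Altre-WT). Of 14 relatives that serve other immune cells, 9 were tested, 3 above and 6 below 0. Syk, the relative of Zap70 in B and myeloid cells, was at 18.1 and 16.1 CPM in Altre-KO and at 14.2 and 22.7 CPM in Altre-WT. The smallest p belonged to Tec (23.3 and 13.6 CPM in Altre-KO, 13.7 and 10.5 CPM in Altre-WT), to Tyrobp, the DAP12 adaptor of myeloid and NK cells (16.5 and 12.7 CPM in Altre-KO, 7.66 and 12.2 CPM in Altre-WT), and to the kinase gene Lyn (20.5 and 16.1 CPM in Altre-KO, 22.4 and 26.5 CPM in Altre-WT). No gene of these groups passed the test.

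**Figure D5:**
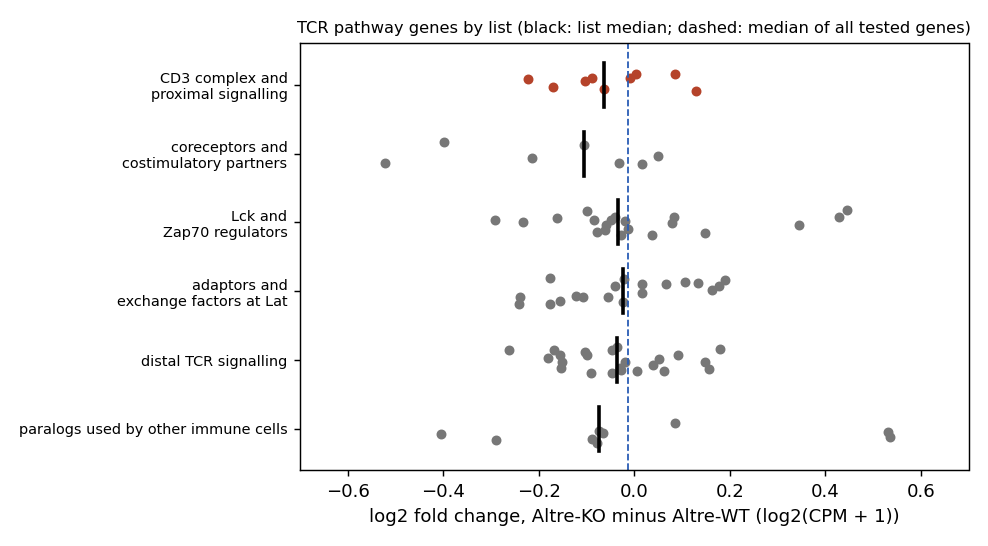
Log2 fold change, Altre-KO minus Altre-WT (horizontal axis), of each tested gene of the CD3 and proximal signalling genes (red) and of 5 further groups (grey), with black bars for group medians and a dashed line for the median of all tested genes (-0.01). The group medians lie between -0.11 and -0.02.

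The genes whose values over the 4 libraries were most like the mean of the 9 were Csk, Grap2 and Dgka, out of 78 tested genes of the other groups. Likeness was the Euclidean distance between deviations from each gene's own mean on the log2(CPM + 1) scale, which was 0.06 for Csk, 0.07 for Grap2 and 0.08 for Dgka. Grap2, the adaptor that joins Slp-76 to Lat, was at 350.0 and 304 CPM in Altre-KO and at 350.0 and 322 CPM in Altre-WT. Dgka, a kinase that removes diacylglycerol, was at 801 and 724 CPM in Altre-KO and at 833 and 743 CPM in Altre-WT. Of the 9 genes themselves, Lck lay nearest their mean (0.089) and Cd3e farthest (0.63), so Csk, Grap2 and Dgka (0.083) were nearer than any of the 9. That mean varied little, with deviations of 0.04 and -0.09 in Altre-KO and 0.05 and 7.8e-05 in Altre-WT. A small distance can therefore mark a gene that varies little rather than one that follows the 9.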

How the data were processed

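RNA sequencing of liver Tregs gave 2 libraries per genotype. The submitters' processing notes name cutadapt, STAR and DESeq2 and the build mm10. How each was used, their versions, the counter and the annotation are not stated there. The deposited table gives each library in RPM (as the values show, scaled to a library total that also holds unlisted reads, with 0.0001 added) and, per the file headers, in CPM, scaled by the authors over the listed genes. It also holds the authors' log2 fold change and p-value, from a test that the headers do not name.

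Reads were estimated from the smallest common RPM step. Between 93.1% and 93.9% of values up to 1000 reads were whole within 0.02 of a read, which left too many fractional values for a count model. The 2 libraries of a genotype were not copies of each other. A chi-square of their estimated reads, divided by its degrees of freedom, was 9.53 between the Altre-KO and 3.36 between the Altre-WT libraries, above sampling noise. Libraries of different genotypes were not compared in this way. limma 3.58.1 (R 4.3.3) with a variance trend was run on log2(CPM + 1) of the 10486 genes with at least 2 libraries at 4.22 CPM (10 estimated reads at the median depth). Group was the only term, and the Benjamini-Hochberg adjustment covered every tested gene (threshold 0.05). Fold changes are Altre-KO minus Altre-WT and understate low genes. Counting errors cover estimated reads only.

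The 9 genes, the lists and the alternatives were chosen with earlier results of these data known. Named were all 9 genes, the 3 of each list with the smallest p and the 3 pathway genes most like the mean of the 9 over the libraries, besides genes added as partners of the 9 after values were seen (Cd4, Cd28, Csk, Syk, Pou2f1). The values of 1 gene that this rule names are not reported here. Lengths and positions are from GENCODE M21, promoter windows from RefSeq (all 9 genes matched, 12 windows), transcript overlaps from blastn 2.17.0 and figures from matplotlib 3.10.9. Of the other marker lists, the summed level lay between 5.08 and 9.25 CPM for CD8 T cells, 0 and 7.11 for gamma-delta T cells (1 of 4 markers listed), 21.6 and 33.1 for NK cells, 33.0 and 39.9 for B cells, 1.64 and 5.92 for platelets, 1.22 and 5.92 for hepatocytes and 175 and 221 for liver endothelium, of which Pecam1 made up 172 to 215.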

Additional observations from a re-analysis of the deposited data

How the results depend on the processing

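None of the 9 genes passed under any of 13 alternatives, where their lowest adjusted p was 0.588, but signs of such small differences turned in 18 of the 117 values that the 13 alternatives gave. In the 4 fits that leave out a library, which include that lowest p, 1 genotype has a single library that is assumed to vary like the others, so they say little about calls. With the deposited RPM scaling, which moved the median of all tested genes to 0.41, log2 fold changes were 0.34 for Cd3d, 0.20 for Cd3e, 0.33 for Cd247, 0.42 for Lck, 0.37 for Fyn and 0.26 for Lcp2, that is, with the other 3 genes, between -0.21 and 0.15 relative to that median. Lck was at 0.022 with median-of-ratios size factors and Lat at -0.0020 with upper-quartile scaling. Leaving out each library in turn gave -0.25 to 0.072 for Cd3d, -0.54 to 0.094 for Cd3e, -0.070 to 0.24 for Cd3g, -0.20 to -0.0048 for Cd247, -0.12 to 0.10 for Lck, -0.16 to 0.034 for Fyn, -0.064 to 0.32 for Zap70, -0.20 to 0.21 for Lat and -0.27 to -0.07 for Lcp2. Over all genes, 4 were called, against 2 with a pseudocount of 0.1, and 5 to 14 without each library (14 without Altre-WT replicate 2, 13 without Altre-KO replicate 2). The cause was not tested.

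Deviations of same-numbered libraries correlated at -0.01 over all tested genes. Low genes had the same weight as high ones there, so the value cannot show whether some genes share a replicate effect. Nothing in the labels says that a number marks a shared mouse or day. With the replicate number as a block, 6 genes were called and 0 of the 9, with the same log2 fold changes. Counting error, which depth sets, was at most 7.83% of a value of the 9 genes.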
